A study of Mus musculus with 27 samples.

Results

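Fatty acid oxidation and ketogenesis were followed here through 34 named genes in the livers of mice on 4 long-term diets. The genes were chosen by name for their place in the pathway, with earlier results of these data known. Their counts and shares beside all genes are therefore descriptions without a test. The array's annotation gave 31 of the 34 genes a probe set that named no other gene. Acadvl, the very long-chain acyl-CoA dehydrogenase of mitochondria, was present only on a probe set shared with Dvl2, and Acsl1 and Ucp2 were not found in the annotation, so these genes have no value below. The 31 measured genes stand against 18820 genes in the whole array table.

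Fatty acids enter hepatocytes, are bound in the cytosol and are joined to coenzyme A. Long chains cross the inner mitochondrial membrane as carnitine esters, and a repeating spiral of dehydrogenase, hydratase, dehydrogenase and thiolase steps then shortens them to acetyl-CoA, from which the fasting liver makes ketone bodies. Peroxisomes shorten the very long and branched chains, and the nuclear receptor PPARa, encoded by Ppara, switches on genes at nearly every one of these steps when fat is the fuel.

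Liver RNA came from male C57BL/6J mice of 12 months, with 1 array per mouse and diets that began at 9 weeks of age. The C-fed mice (n = 7) ate the AIN-93W diet ad libitum, and the MF-fed mice (n = 7) ate a diet with 25% of its energy from fat ad libitum. The CR-fed mice (n = 6) were given portions planned at 30% less energy than C-fed mice took. The intake that the paper measured for CR-fed mice was lower than this plan. The INT-fed mice (n = 7) alternated each week between ad libitum MF and a planned restriction of 40%, and were killed in an MF week. Every mouse was fasted for 4 h, was mock-treated by gavage with 0.5% carboxymethyl cellulose and was fasted for 6 h more. The CR-fed mice were given their food once a day, in the afternoon, so the hours since the last meal before the labelled fast may have differed between diets, and the part of this in the results was not tested.

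The arrays had medians between 5.211 and 5.272 log2 units, and pairs of arrays correlated with r between 0.9819 and 0.9921. Neither labels nor file headers name a batch. The order of the samples lists replicates 1 to 4 of each diet (16 arrays) before replicates 5 to 7 (11 arrays), and this split was examined as a possible batch inferred from the replicate numbers alone. The interquartile range ran from 3.586 to 3.696 log2 units in the former and from 3.641 to 3.759 in the latter. These ranges overlapped through INT replicate 6 (3.641) alone. Every other array of replicates 5 to 7 lay at 3.6958 or above, and none of replicates 1 to 4 lay above 3.6956. Every diet was present in both groups. Precision is set by the number of mice. Of 8 hepatocyte markers, none was lower in the CR-fed mice, and 2 (Cps1 and Tat) were higher than in C-fed mice, while their summed intensity ran from 68885 to 73331 in CR-fed mice against 62295 to 69695 in C-fed mice. Macrophage markers summed to between 3744 and 5572 in CR-fed mice, 3112 and 4756 in C-fed, 2594 and 4139 in MF-fed and 2340 and 3710 in INT-fed mice. Of these 8 markers, 2 were higher in CR-fed than in C-fed mice and 3 were higher in CR-fed than in MF-fed mice. Between INT and CR, 5 were lower with INT. Of all genes tested, 17.5% were called between CR and C, 19.8% between CR and MF and 15% between INT and CR. Alas2, an enzyme of haem synthesis in red cell precursors, was lower in CR-fed than in C-fed mice (-1.42, adjusted p = 4.78e-08, with no overlap), and Slc4a1, the anion exchanger of red cells, was higher (0.46, adjusted p = 0.00109). Alas2 was also at -1.34 between CR and MF and at 1.55 between INT and CR, both called. These were the erythroid markers measured, 2 of 5, and their summed intensity ran from 248 to 363 in CR-fed mice and from 436 to 964 over the other diets, also with no overlap. Of 4 cholangiocyte markers, Krt7 (0.44) and Sox9 (0.29) were higher in CR-fed than in C-fed mice and none was lower, with sums of 190 to 247 against 158 to 201. In the same comparison 1 of 7 endothelial markers (Kdr) was higher, 1 of 8 T, B and NK cell markers (Cd4) was lower, and no stellate, neutrophil or adipocyte marker was called. Their part in the results was not tested. In whole liver, fewer cells of a type and less RNA per cell cannot be told apart.

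The promoters of the members show how few of them hold a strict receptor motif next to the start site, and they are printed for the 4 genes that hold any. RefSeq's table (build GRCm38.p6, from 250 bases before to 50 after the start site) held 28 promoters of 26 member genes. PPARa binds with RXR to a pair of AGGTCA elements spaced by 1 base. The full pair (AGGTCA, any 1 base, AGGTCA, on either strand) was in none of the members' promoters and in 0.0396% of all 32851 promoters. A looser pair (AGGNCA, any 1 base, AGGNCA), added after the full one had been searched, was in the Fabp1 promoter alone (3.85% of the member genes) and in 0.381% of all promoters. The single element AGGTCA, which the pairs contain in part or in full, was in 4 member genes (15.4%) and in 16.3% of all promoters. Below are the 250 bases before the start site, with the matches in capitals (TGACCT is AGGTCA on the other strand). For Cpt1a the start site used lies inside the gene's listed bounds, which begin at position 3322326.
Fabp1 (chr6:71199629-71199878, plus strand): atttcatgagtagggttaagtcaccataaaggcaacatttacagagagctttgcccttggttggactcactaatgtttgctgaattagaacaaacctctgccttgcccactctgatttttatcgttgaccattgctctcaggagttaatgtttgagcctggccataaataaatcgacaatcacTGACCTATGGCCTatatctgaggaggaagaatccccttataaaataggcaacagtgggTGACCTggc
Slc27a2 (chr2:126552774-126553023, plus strand): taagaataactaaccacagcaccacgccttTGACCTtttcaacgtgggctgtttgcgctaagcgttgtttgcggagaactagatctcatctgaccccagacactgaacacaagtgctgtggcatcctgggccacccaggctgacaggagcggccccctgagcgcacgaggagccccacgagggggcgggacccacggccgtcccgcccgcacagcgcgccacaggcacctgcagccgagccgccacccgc
Cpt1a (chr19:3323051-3323300, plus strand): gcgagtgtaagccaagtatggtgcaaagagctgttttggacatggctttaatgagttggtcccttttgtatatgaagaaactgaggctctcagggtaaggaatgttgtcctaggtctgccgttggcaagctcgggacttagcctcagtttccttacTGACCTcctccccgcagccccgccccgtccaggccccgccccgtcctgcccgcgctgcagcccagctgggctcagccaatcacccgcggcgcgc
Acadm (chr3:153944644-153944893, minus strand): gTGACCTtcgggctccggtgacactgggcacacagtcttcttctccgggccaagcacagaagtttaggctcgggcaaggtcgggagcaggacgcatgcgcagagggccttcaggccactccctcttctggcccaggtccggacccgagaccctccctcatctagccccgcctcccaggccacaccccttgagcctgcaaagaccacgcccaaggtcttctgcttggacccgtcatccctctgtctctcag
In Fabp1 the looser pair began 67 bases before the start site, within the run TGACCTATGGCCT. These letters describe the windows only.

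CR-fed mice had lower expression of the members that bring fatty acids into mitochondria, of the 4 members that handle double bonds and of 4 of the 7 peroxisomal members, relative to C-fed mice. None of the 7 members of the mitochondrial spiral was called, though 3 of 14 further genes of mitochondrial beta-oxidation, given below, were lower. Of the 31 genes, 17 were lower and 1 (Etfa) was higher in CR-fed mice at an adjusted p below 0.05 (limma, Benjamini-Hochberg over all 13603 genes tested). Over all genes tested, 17.5% were called in this comparison, 9.05% lower and 8.46% higher. The members' median log2 fold change was -0.31, beside 0.004 over all genes, and 26 of the 31 lay below 0. In 7 members every CR-fed mouse was below every C-fed mouse, a separation seen in 3.47% of all genes.

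Ppara itself was lower in the CR-fed mice. Its log2 intensity ran from 10.68 to 11.07 with a median of 10.83 in CR-fed mice and from 10.75 to 11.42 with a median of 11.21 in C-fed mice. It ran from 11.09 to 11.36 (median 11.17) in MF-fed and from 11.13 to 11.33 (median 11.22) in INT-fed mice. All CR-fed mice lay below all MF- and INT-fed mice, and the overlap with C-fed mice came from 1 C-fed mouse at 10.75, whose nearest neighbour was at 11.21. The log2 fold change was -0.35 (standard error 0.08, adjusted p = 0.00239) against C.

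The 2 measured members of uptake and binding were lower as well. Of 13 further genes of uptake, activation and transport, given below, 2 were higher and 1 was lower, with a median of 0.01. Slc27a2, a very long-chain acyl-CoA synthetase and transporter, ran from 12.30 to 12.72 (median 12.44) in CR-fed and from 12.78 to 12.94 (median 12.88) in C-fed mice, with no overlap and a log2 fold change of -0.41 (standard error 0.06, adjusted p = 9.95e-06). Fabp1, the liver fatty acid-binding protein, ran from 12.36 to 12.77 (median 12.63) in CR-fed and from 12.79 to 13.06 (median 12.93) in C-fed mice. Its log2 fold change of -0.31 (standard error 0.07) had an adjusted p of 0.00139.

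All 3 genes of the carnitine shuttle fell. Cpt1a, the outer-membrane carnitine palmitoyltransferase that limits the rate of entry, ran from 11.68 to 12.01 (median 11.78) in CR-fed and from 12.19 to 12.39 (median 12.30) in C-fed mice. Its log2 fold change was -0.48 (standard error 0.06, adjusted p = 2.71e-06), which is 1.39-fold lower. Slc25a20, the carnitine-acylcarnitine translocase of the inner membrane, ran from 9.76 to 10.15 (median 10.05) in CR-fed and from 10.22 to 10.64 (median 10.46) in C-fed mice, a log2 fold change of -0.46 (standard error 0.10, adjusted p = 0.00221). Cpt2, which returns the chain to coenzyme A inside the matrix, ran from 10.24 to 10.55 (median 10.39) and from 10.62 to 10.93 (median 10.80), a log2 fold change of -0.38 (standard error 0.08, adjusted p = 0.000658). The CR-fed mice overlapped with the C-fed mice at none of the 3 steps.

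The spiral gave another picture. None of the 3 acyl-CoA dehydrogenases and none of the 4 genes of the later steps was called. The medium-chain dehydrogenase Acadm had a log2 fold change of -0.14 (95% interval -0.30 to 0.02), the long-chain Acadl 0.06 (-0.08 to 0.19) and the short-chain Acads -0.06 (-0.21 to 0.09). The 2 subunits of the trifunctional protein had log2 fold changes of -0.14 (Hadha, interval -0.27 to -0.02, adjusted p = 0.117) and -0.20 (Hadhb, interval -0.38 to -0.03, adjusted p = 0.104). The short-chain hydroxyacyl-CoA dehydrogenase Hadh was at -0.09 (-0.22 to 0.04) and the thiolase Acaa2 at -0.03 (-0.14 to 0.07). Each of these 7 intervals lay within 0.5 of 0, and those of Hadha and Hadhb lay wholly below 0. The shuttle's intervals were -0.60 to -0.35 (Cpt1a), -0.67 to -0.25 (Slc25a20) and -0.54 to -0.23 (Cpt2). Each overlapped with the interval of Hadhb. Whether the steps differed from each other was not tested.

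All 4 isomerases and reductases that make unsaturated chains fit for the spiral fell. Eci2, an enoyl-CoA isomerase, ran from 9.71 to 9.99 (median 9.85) in CR-fed and from 10.20 to 10.60 (median 10.31) in C-fed mice. The groups did not overlap, and the log2 fold change was -0.50 (standard error 0.07, adjusted p = 2.3e-05). Decr1, the mitochondrial dienoyl-CoA reductase, ran from 9.26 to 9.80 (median 9.59) against 9.85 to 10.14 (median 10.02), a log2 fold change of -0.45 (standard error 0.08, adjusted p = 0.000347). The mitochondrial isomerase Eci1 (-0.36, adjusted p = 0.00685) and the peroxisomal reductase Decr2 (-0.34, adjusted p = 0.00543) fell with overlap between the groups. Outside the member list, the dienoyl-CoA isomerase Ech1 (-0.08, adjusted p = 0.578) and the peroxisomal enoyl-CoA reductase Pecr (0.15, adjusted p = 0.287) were not called, and both were named after their values were seen.

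Electron transfer from the dehydrogenases was split. Etfdh, which passes electrons on to ubiquinone, fell by 0.25 on the log2 scale (adjusted p = 0.0287), and Etfa, the alpha subunit of the electron transfer flavoprotein, was higher by 0.16 (adjusted p = 0.0495). Etfb, its beta subunit, was at 0.07 (interval -0.07 to 0.20). The Etfdh call was lost without C replicate 1, 4, 5 or 6 or CR replicate 2, 4 or 6, where its log2 value stayed below 0. The Etfa call held only when C replicate 6, CR replicate 4 or 6, MF replicate 3, 4 or 6 or INT replicate 1 was the mouse left out, and with every other mouse left out it was lost with the value still above 0. The Etfa call also ended with median centring, with no intensity filter, with only the 2 diets fitted and with replicate or mouse number as a block.

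Of 7 peroxisomal genes, 4 fell (57.1% called, beside 17.5% of all genes). Pex11a, a protein of peroxisome division, ran from 10.30 to 11.04 (median 10.98) in CR-fed and from 10.99 to 11.97 (median 11.47) in C-fed mice, a log2 fold change of -0.64 (standard error 0.18, adjusted p = 0.0123). Crot, the carnitine octanoyltransferase that sends shortened chains out of peroxisomes, ran from 10.68 to 11.39 (median 11.14) against 11.23 to 11.79 (median 11.67), a log2 fold change of -0.50 (standard error 0.13, adjusted p = 0.00767). In both genes the highest CR-fed mice lay within the lower part of the C-fed range. Acaa1a, a peroxisomal thiolase (-0.51, adjusted p = 0.00151), and Hsd17b4, the D-bifunctional protein (-0.38, adjusted p = 0.00155), fell too. The thiolase Acaa1b, close in sequence to Acaa1a so that their probes may share signal, was at -0.34 (adjusted p = 0.153), and the transporter Abcd3 at -0.12 (adjusted p = 0.325).

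Ehhadh, the L-bifunctional enzyme of peroxisomes and a classical PPARa target, lay in the other direction. Its log2 intensity ran from 11.22 to 11.57 (median 11.40) in CR-fed, from 10.63 to 11.43 (median 10.86) in C-fed and from 10.66 to 11.13 (median 10.92) in MF-fed mice, and from 10.56 to 12.21 (median 11.00) in INT-fed mice. Every CR-fed mouse was above every MF-fed mouse. The log2 fold changes of 0.42 against C (standard error 0.18, adjusted p = 0.102) and 0.48 against MF (standard error 0.18, adjusted p = 0.0534) did not pass the threshold. Both passed it without INT replicate 1, the mouse at 12.21 that enters these fits through the shared spread, with adjusted p of 0.0268 and 0.0103 and the same fold changes. The call against MF was also gained without C replicate 1 or INT replicate 4 or 7.

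In ketogenesis, Acat1, the mitochondrial acetoacetyl-CoA thiolase, fell by 0.17 on the log2 scale (standard error 0.06, adjusted p = 0.0426), a call that was lost without any one of C replicates 1 to 5 or CR replicate 3, 4 or 6. Bdh1, which turns acetoacetate into beta-hydroxybutyrate, ran from 10.25 to 10.70 (median 10.39) in CR-fed and from 10.43 to 11.04 (median 10.66) in C-fed mice. Its log2 fold change was -0.29 (standard error 0.11, adjusted p = 0.0575), and it was called without C replicate 1 or 6, MF replicate 4, CR replicate 5 or INT replicate 5, at -0.29 to -0.34. Bdh1 was also called with a mean intensity above 50, median centring, a robust fit with a variance trend, array weights or replicate number as a block. Hadhb and Acaa1b were each called without 1 C-fed mouse, Hadhb without C replicate 2 (-0.25) and Acaa1b without C replicate 6 (-0.44).

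The size of the change was greatest for Vnn1, the pantetheinase that recycles the vitamin part of coenzyme A and is often used as a readout of PPARa activity. Its log2 intensity ran from 8.36 to 10.66 (median 9.40) in CR-fed, from 10.06 to 11.85 (median 11.52) in C-fed, from 10.68 to 11.84 (median 11.68) in MF-fed and from 10.45 to 11.56 (median 11.06) in INT-fed mice. The CR-fed mice were below all MF-fed mice and overlapped with C- and INT-fed mice at the edge. The log2 fold change against C was -1.79 (standard error 0.30, adjusted p = 0.000112), or 3.46-fold lower. Pdk4, the kinase that shuts off pyruvate oxidation when fat is burned, varied widely in every diet. It ran from 7.80 to 9.50 (median 8.83) in CR-fed, from 7.18 to 9.20 (median 8.21) in C-fed, from 7.17 to 9.75 (median 8.90) in MF-fed and from 6.75 to 9.85 (median 7.53) in INT-fed mice, and its log2 fold change of 0.74 (standard error 0.46, adjusted p = 0.304) against C did not pass the threshold.

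**Figure D1:**
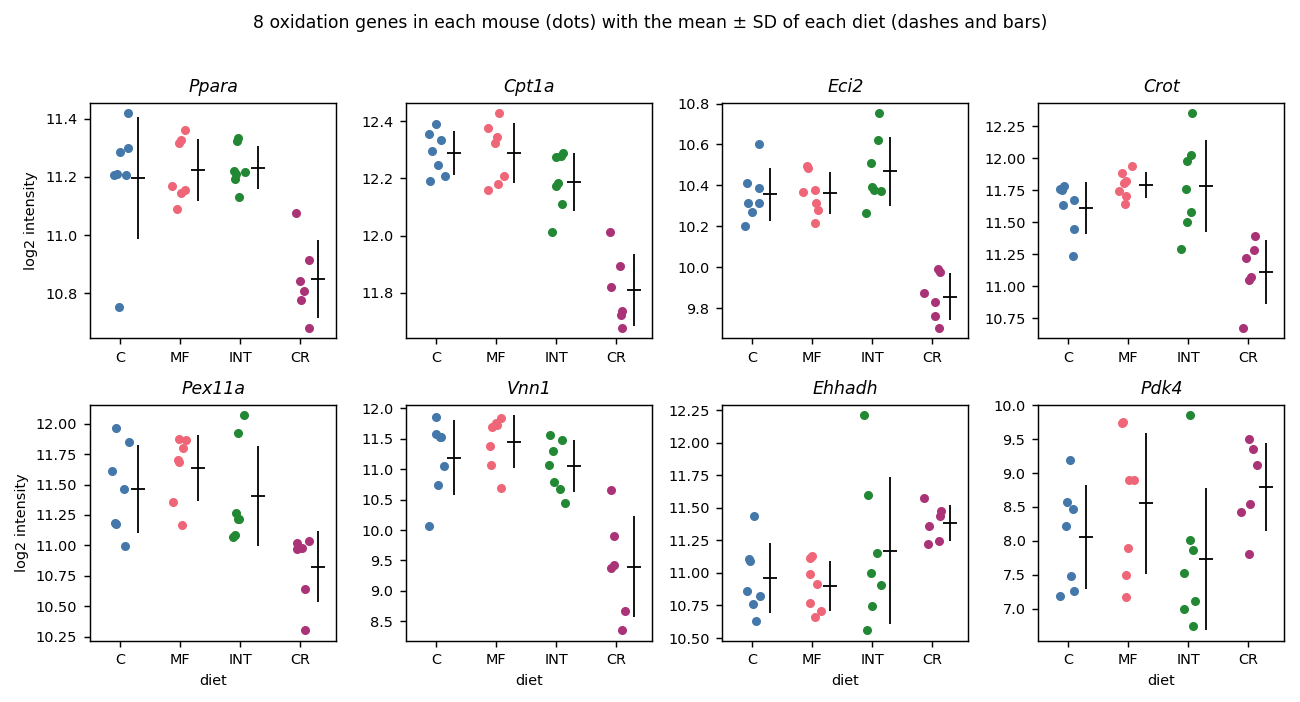
Log2 intensity (y axis) of 8 genes in single mice (dots) by diet (x axis), with the mean and SD of each diet beside them (dashes and bars). CR-fed mice lie below all others in Cpt1a and Eci2. In Cpt1a the margin is thin, with CR replicate 1 at 12.012 and INT replicate 3 at 12.013. CR-fed mice overlap with the lowest C-fed mice in Ppara, Crot, Pex11a and Vnn1, lie at or above most others in Ehhadh, and mix with them in Pdk4. Y axes do not start at 0 and differ between genes.

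Against MF-fed mice, CR-fed mice showed the changes over a few more genes. These comparisons share the CR-fed mice, so their values stand side by side and are not independent. Of the 31 genes, 20 were lower and 1 (Etfa, 0.20, adjusted p = 0.00903) was higher in CR-fed mice, where 19.8% of all genes were called (11.2% lower and 8.57% higher). The median was -0.35, beside -0.002 over all genes. CR-fed mice lay wholly below MF-fed mice in 11 members and wholly above in 1 (Ehhadh), separations seen in 4.12% and 2.9% of all genes. Vnn1 was at -2.05 (standard error 0.30, adjusted p = 1.82e-05), Pex11a at -0.81 (standard error 0.18, adjusted p = 0.00153) and Crot at -0.68 (standard error 0.13, adjusted p = 0.000415). Cpt1a ran from 12.16 to 12.43 (median 12.32) in MF-fed mice, and its log2 fold change was -0.48 (standard error 0.06, adjusted p = 2.45e-06). Slc25a20 (-0.53), Cpt2 (-0.45), Eci2 (-0.50), Decr1 (-0.48), Eci1 (-0.42), Decr2 (-0.39), Acaa1a (-0.48), Hsd17b4 (-0.45), Ppara (-0.37), Slc27a2 (-0.35) and Fabp1 (-0.32) fell as well.

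In the spiral and in ketogenesis, Bdh1, Acadm and Hadha were called here and not against C. Bdh1 ran from 10.62 to 11.17 (median 10.80) in MF-fed mice and was at -0.38 (standard error 0.11, adjusted p = 0.00985), and Acat1, called in both comparisons, was at -0.22 (adjusted p = 0.0077). Acadm was at -0.22 (adjusted p = 0.0419) and Hadha at -0.20 (adjusted p = 0.0261), while Acadl (0.01), Acads (-0.09), Acaa2 (-0.03), Hadh (-0.17, adjusted p = 0.0503) and Hadhb (-0.23, adjusted p = 0.058) were not called. The Acadm call was lost without any one of CR replicates 3 to 6 or of MF replicates 1, 3, 4, 5 and 7. The Hadha call was lost without CR replicate 3 (-0.18), CR replicate 6 (-0.16) or MF replicate 5 (-0.18), and that of Etfdh (-0.26) without CR replicate 4 (-0.23) or 6 (-0.21). Hadhb was called without C replicate 2, CR replicate 1 or MF replicate 1 (-0.23 to -0.26). Acaa1b (-0.44, adjusted p = 0.0522) was called without CR replicate 1, MF replicate 4, INT replicate 1 or 7 or C replicate 5 or 6 (-0.44 to -0.51). Leaving out C replicate 2, 5 or 6, CR replicate 5, MF replicate 1, 2 or 6 or INT replicate 1, 2 or 6 brought Hadh past the threshold.

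INT-fed mice, killed in their week of free feeding, had higher levels than CR-fed mice in 20 of the 31 genes and lower levels in none that passed the test, where 15% of all genes were called (8.37% higher and 6.62% lower). The median was 0.36, beside -0.001 over all genes. In 9 members every INT-fed mouse was above every CR-fed mouse, as in 3.66% of all genes. Eci2 ran from 10.27 to 10.75 (median 10.39) in INT-fed mice and was higher by 0.61 on the log2 scale (standard error 0.07, adjusted p = 1.24e-06). Cpt1a ran from 12.01 to 12.29 (median 12.18), just above the highest CR-fed mouse, and was higher by 0.38 (standard error 0.06, adjusted p = 7.35e-05). Vnn1 was higher by 1.65 (standard error 0.30, adjusted p = 0.000334), Crot by 0.67, Pex11a by 0.58, Acaa1a by 0.55, Acaa1b by 0.47, Decr1 and Slc25a20 by 0.47, Cpt2 by 0.46, Slc27a2 and Decr2 by 0.42, Ppara and Eci1 by 0.38, and Hsd17b4 and Fabp1 by 0.36.

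Some of these calls rested on single mice. Pex11a lost its call without INT replicate 1 (0.47) or 4 (0.50) or CR replicate 5 (0.48) or 6 (0.55). Acaa1b (adjusted p = 0.0459), Acadm (0.23, adjusted p = 0.0463) and Hadha (0.18, adjusted p = 0.0496) stood at the threshold. Acaa1b lost its call without C replicate 3 or 7, any one of CR replicates 2 to 6, MF replicate 1, 2 or 7 or INT replicate 1, 3, 4, 5 or 6. Acadm lost it without C replicate 3 or 7, any one of CR replicates 3 to 6, MF replicate 1 or 3 or INT replicate 1, 4 or 5. Hadha kept its call only when C replicate 2, CR replicate 1 or INT replicate 2, 6 or 7 was the mouse left out. Pdk4, at -1.06 (standard error 0.46, adjusted p = 0.129), was called lower on INT without INT replicate 1, at -1.41 (adjusted p = 0.022), the mouse with the highest Pdk4 of all. Hadhb (0.24, adjusted p = 0.0543) was called without C replicate 2, CR replicate 1 or INT replicate 2 or 7, and on its other probe set (0.26). Abcd3 (0.21) was called without INT replicate 2 or 7, and Bdh1 (0.28) without INT replicate 2 or CR replicate 5.

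**Figure D2:**
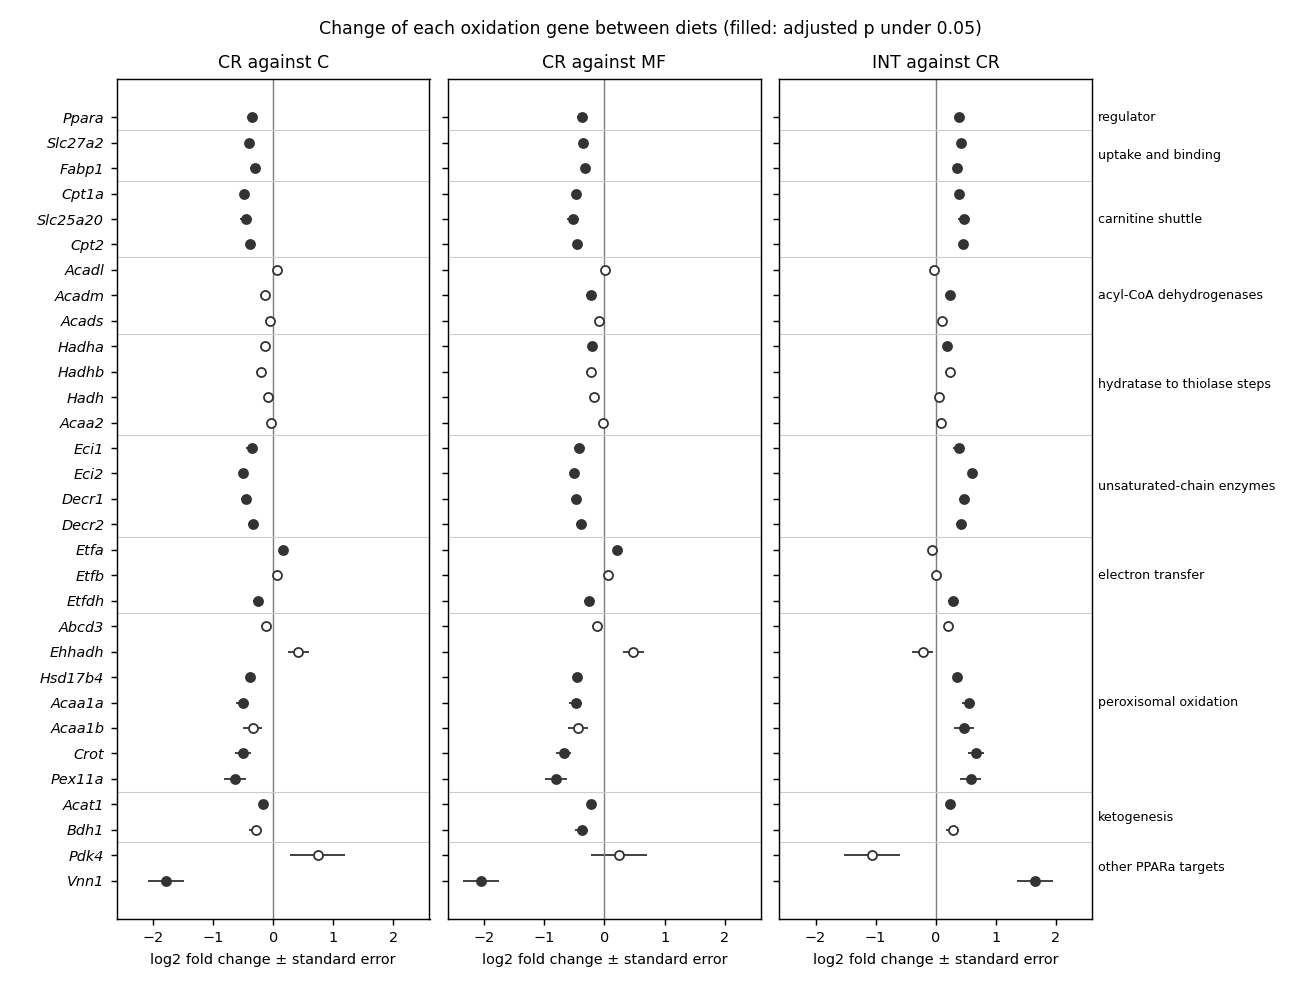
Log2 fold change (x axis) with its standard error for each of the 31 genes (y axis, in the order of their roles) in the 3 comparisons with CR-fed mice. Filled points passed an adjusted p of 0.05. The shuttle and the enzymes for unsaturated chains are filled in all 3 panels, none of the 7 spiral genes is filled against C, Acadm and Hadha are filled in the other 2 panels, and Vnn1 lies farthest from 0.

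In 5 members, Cpt1a, Slc25a20, Cpt2, Eci2 and Decr1, every CR-fed mouse was below each of the other 21 mice, and in no member was every CR-fed mouse above them. Over all genes tested, 1.57% were separated downwards in this way and 1.18% upwards. The margin between CR replicate 1 and INT replicate 3 was thin in Cpt1a (12.012 and 12.013) and in Decr1 (9.799 and 9.815). The mean over the 31 genes was 10.79 ± 0.13 (SD, n = 6) in CR-fed mice, 11.06 ± 0.14 (SD, n = 7) in C-fed, 11.12 ± 0.10 (SD, n = 7) in MF-fed and 11.09 ± 0.16 (SD, n = 7) in INT-fed mice. The CR-fed mouse with the highest mean (10.98) reached into the range of the others.

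**Figure D3:**
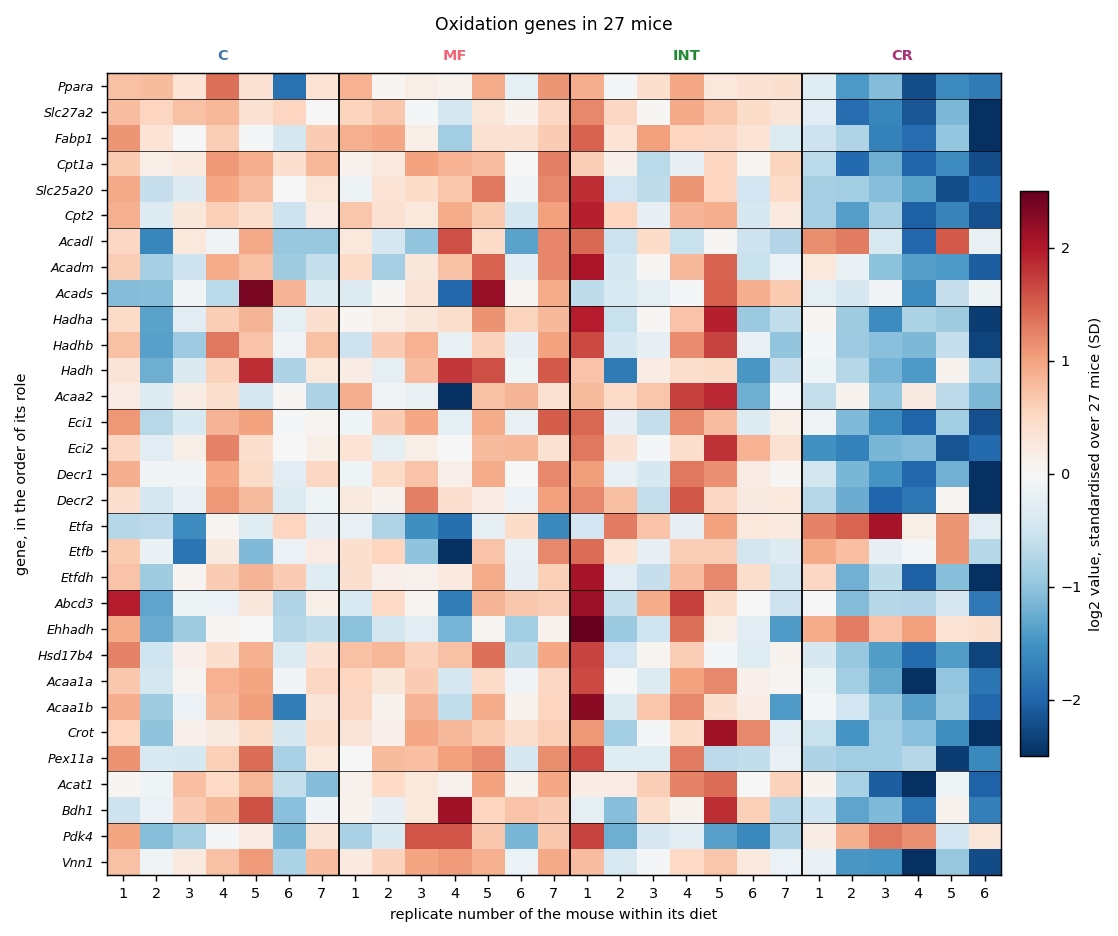
The 31 genes (rows, in the order of their roles) in 27 mice (columns, replicate numbers within each diet), coloured by the log2 value standardised over all mice. CR columns are mostly blue except in the rows of Etfa, Etfb, Ehhadh, Pdk4 and Acadl, and INT replicate 1 is red in most rows.

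No member was called between INT- and MF-fed, INT- and C-fed or MF- and C-fed mice by limma, and neither was any other gene (0% called in each). At an unadjusted p below 0.05, 2 members passed between INT and MF (10.9% of all genes did), none between INT and C (6.78%) and none between MF and C (3.41%). Those 2 were Etfa (0.14, interval 0.03 to 0.25, adjusted p = 0.383) and Hadh (-0.12, unadjusted p = 0.046, adjusted p = 0.456). The medians were 0.01, 0.04 and 0.04, beside -0.003, 0.005 and 0.009 over all genes. Ppara was at 0.01 (interval -0.15 to 0.16) between INT and MF, 0.04 (-0.12 to 0.19) between INT and C and 0.03 (-0.13 to 0.18) between MF and C. Cpt1a was at -0.10 (-0.22 to 0.02) in both comparisons with INT, and its interval between MF and C ran from -0.12 to 0.12. The smallest p among members belonged to Etfa (0.09), Cpt1a and Eci2 (0.11) between INT and C, and to Crot (0.18), Hadh (0.08) and Pdk4 (0.50) between MF and C, none of them past an unadjusted 0.05.

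These intervals bound what could have gone unseen. The 95% interval lay within 0.5 log2 units of 0 for 27 of the 31 genes between INT and MF, for 28 between INT and C and for 28 between MF and C. The genes with wider intervals were Ehhadh, Pex11a, Pdk4 and Vnn1 between INT and MF, Ehhadh, Pdk4 and Vnn1 between INT and C, and Pex11a, Pdk4 and Vnn1 between MF and C. Pdk4, for which INT-fed mice had the lowest median, was at -0.82 (interval -1.73 to 0.09) between INT and MF and at -0.32 (-1.23 to 0.59) between INT and C. Without INT replicate 1, the mouse with the highest Pdk4, these values were -1.18 (adjusted p = 0.31) and -0.68 (adjusted p = 0.729).

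Within a diet, most of these genes rose and fell together from mouse to mouse. After each diet's mean was removed, Pearson's r between pairs of members had a median of 0.47 over 465 pairs, and 93.1% of the pairs were positive. Over all pairs of genes tested the median was 0.00 and 50.7% were positive. With the means of the 2 groups of replicate numbers (1 to 4 and 5 to 7) removed too, the members' median was 0.51 and 92% were positive. The points share the 27 arrays and their joint normalization, and the genes are not independent, so these values are descriptions without a test.

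Both mitochondrial and peroxisomal enzymes took part. Set against the mean of the other 30 members over the 27 mice, Eci1 and Decr1 each had an r of 0.91 (Spearman's rho 0.86 and 0.87), Acadm 0.88, Hadhb 0.87, Etfdh 0.86, Hadha 0.85, Hsd17b4 and Acaa1a 0.84, and Vnn1 0.80. Without the 2 mice farthest from the median, r was 0.89 for Eci1 and 0.91 for Decr1. It fell further in other members, from 0.63 to 0.50 for Slc27a2, from 0.59 to 0.48 for Fabp1 and from 0.63 to 0.53 for Cpt1a. It rose for Acaa2, Acads, Acat1, Bdh1 and Etfa. Ppara itself was at 0.58 with all mice and at 0.51 without these 2. Ehhadh, whose mean was not lower in CR-fed mice, was at 0.74, and Acadm, Hadha and Hadhb, not called between C- and CR-fed mice, were near the top. Bdh1 (0.34), Acaa2 (0.29), Acads (0.20) and Etfa (-0.01) varied least with the rest. The SD within diets ranged from 0.08 for Acaa2 to 0.59 for Vnn1 and 0.90 for Pdk4.

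Single mice stood out in many members at once. INT replicate 1 was the highest INT-fed mouse in 20 of the 31 genes, CR replicate 1 the highest CR-fed mouse in 18, CR replicate 6 the lowest in 18 and C replicate 2 the lowest C-fed mouse in 15. Without INT replicate 1, the members' median between INT and CR was 0.31 in place of 0.36. Without CR replicate 6, the median between CR and C was -0.26 in place of -0.31, and that between CR and MF was -0.32 in place of -0.35.

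**Figure D4:**
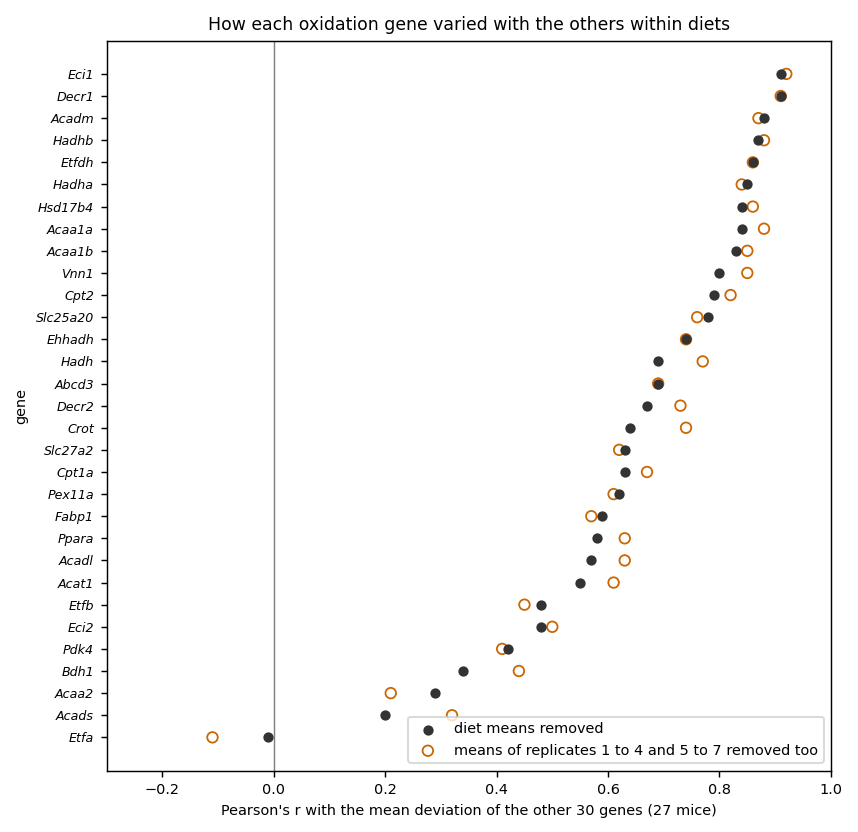
Pearson's r (x axis) over 27 mice between each gene (y axis) and the mean of the other 30, after the diet means were removed (filled) and after the means of replicates 1 to 4 and 5 to 7 were removed as well (open). 30 of the 31 filled points lie above 0, from 0.20 for Acads to 0.91 for Eci1 and Decr1, and Etfa lies at -0.01.

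Within either group of replicate numbers fewer members were called, each holding fewer mice. In replicates 1 to 4 alone, 9 members were called between CR and C, 14 between CR and MF and 11 between INT and CR, where 9.01%, 14.5% and 7.63% of all genes were called. In replicates 5 to 7 alone the members called were 4, 5 and 5, where 3.65%, 2.43% and 2.55% of all genes were called. The medians within these subsets were -0.31 and -0.33 for CR against C, -0.31 and -0.41 for CR against MF, and 0.31 and 0.37 for INT against CR. With these 2 groups as a block, 17 members were lower and 1 was higher between CR and C, 21 were lower and 1 was higher between CR and MF, and 19 were higher between INT and CR.

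A further 103 genes of the pathway were listed, of which 89 had a probe set of their own and 84 passed the intensity minimum. Between CR and C, 9 of the 84 were higher and 22 lower (36.9%, where 17.5% of all genes were called), with a median of -0.07. Between CR and MF, 10 were higher and 26 lower (42.9%, where 19.8% of all genes were called), and between INT and CR 24 were higher and 8 lower (38.1%, where 15% were called). None was called between the other diets.

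Ppargc1a, the coactivator of PPARa and of mitochondrial biogenesis, ran from 9.74 to 10.15 (median 9.99) in CR-fed mice, from 7.89 to 8.61 (median 8.43) in C-fed, from 7.06 to 8.44 (median 7.97) in MF-fed and from 8.01 to 8.33 (median 8.22) in INT-fed mice. Every CR-fed mouse was above every other mouse, at a log2 fold change of 1.63 against C (standard error 0.16, adjusted p = 9.39e-08) and 2.04 against MF (adjusted p = 1.47e-09). Ppara, which it serves, was lower in these same mice, as given above. Of 11 further regulators and cofactors, Ppargc1a included, 2 were higher and 1 lower in CR-fed than in C-fed mice (27.3%, where 17.5% of all genes were called). The others called were Klf15, a transcription factor of fasting metabolism (0.46, adjusted p = 0.0497), and Creb3l3, a liver transcription factor that works with PPARa in fasting (-0.45, standard error 0.07, adjusted p = 2.9e-05). The Klf15 call held only when C replicate 2, CR replicate 1 or MF replicate 1, 3, 4 or 5 was the mouse left out.

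The genes that set malonyl-CoA, the inhibitor of the enzyme encoded by Cpt1a, changed in CR-fed mice as well. Acaca, the cytosolic acetyl-CoA carboxylase that makes it, ran from 10.43 to 11.19 (median 10.81) in CR-fed and from 9.21 to 10.01 (median 9.82) in C-fed mice, a log2 fold change of 1.11 (standard error 0.15, adjusted p = 5.52e-06). Acacb, the carboxylase of the mitochondrial surface, was at 0.68 (standard error 0.20, adjusted p = 0.0164), and in both genes the groups did not overlap. Mlycd, the decarboxylase that removes malonyl-CoA, was lower (-0.26, standard error 0.08, adjusted p = 0.0194), a call that was lost without CR replicate 2 (-0.22). Against INT-fed mice, Acaca differed by -1.26 and Acacb by -1.11 for INT against CR. RNA levels say nothing of the amount or the activity of these enzymes.

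Of 12 other peroxisomal and alpha-oxidation genes, 2 were higher and 6 lower in CR-fed than in C-fed mice (66.7%, beside 17.5% of all genes). The higher ones were Abcd2, a transporter of very long chains (0.79, adjusted p = 0.0362), and Hao2, a peroxisomal hydroxyacid oxidase. Scp2, the sterol carrier protein whose long form is a peroxisomal thiolase, fell by 0.53 (standard error 0.07, adjusted p = 3.71e-06), and the branched-chain oxidase Acox3 (-0.36), the racemase Amacr (-0.30), the phytanoyl-CoA hydroxylase Phyh (-0.14) and the peroxins Pex14 (-0.30) and Pex19 (-0.39) were lower too. Calls were lost without C replicate 2 or 6 or CR replicate 1, 2, 4, 5 or 6 for Abcd2 and without CR replicate 2 or 6 for Phyh. Hao2 ran from 5.51 to 6.49 in CR-fed mice, but lay at or below the intensity minimum of 20 in all 7 INT-fed, 4 C-fed and 2 MF-fed mice, so its level with CR was at least 3.33-fold that with INT (adjusted p = 2.28e-06). Among 14 other genes of mitochondrial beta-oxidation none was higher and 3 were lower (21.4%, beside 17.5% of all genes), Acad12 (-0.43), Hsd17b10 (-0.39) and Acad11 (-0.23). Of 13 genes of uptake, activation and transport, the acyl-CoA synthetases Acsl4 (0.59, adjusted p = 2.91e-05) and Acsl5 (0.25, adjusted p = 0.0431) were higher and the medium-chain synthetase Acsm1 (-0.32, adjusted p = 0.00401) was lower, so that 23.1% were called, beside 17.5% of all genes. Acad12 lost its call without any one of C replicates 3 to 5 or CR replicate 3, 4 or 6, and Acsl5 without C replicate 2, 4, 5 or 6 or CR replicate 1, 2, 4, 5 or 6.

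Among 6 genes of omega-oxidation, which starts at the other end of the chain, Cyp4a12a fell the most between C and CR, from a mean of 12.09 to one of 5.31 (log2 fold change -6.77, adjusted p = 1.33e-15), and Cyp4a12b, close to it in sequence so that their probes may share signal, fell by 6.63. Adh4, an alcohol dehydrogenase, was lower (-0.56, adjusted p = 0.00288). Cyp4a14, a classical PPARa target, was higher in CR-fed than in C-fed mice (1.20, standard error 0.42, adjusted p = 0.0472) and was at 0.56 (adjusted p = 0.393) against MF. Its call held only when C replicate 1, 4, 5 or 7, MF replicate 1, 4 or 6 or INT replicate 1, 2, 4 or 7 was left out.

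Of 19 other PPARa targets, 6 were lower and none higher in CR-fed than in C-fed mice (31.6%, beside 17.5% of all genes). Among them were Cidec, a lipid droplet protein (-3.03, standard error 0.63, adjusted p = 0.00104), and G0s2, an inhibitor of the triglyceride lipase encoded by Pnpla2 (-1.53, standard error 0.26, adjusted p = 9.29e-05). That lipase gene fell by 0.44 (adjusted p = 0.00102), and the monoglyceride lipase Mgll by 0.77 (adjusted p = 2.9e-05). Against MF, Cidec was at -3.44 and G0s2 at -1.34. Acot1, a cytosolic acyl-CoA thioesterase with near-identical relatives, was at -1.04 (adjusted p = 0.0441) against MF and, for INT against CR, at 1.16 (adjusted p = 0.0307). The first call was lost without MF replicate 1, 2, 5 or 7 or CR replicate 5 or 6, and the second without INT replicate 1 or 4 or CR replicate 5 or 6. Of 6 further genes of ketone body metabolism, 1 was called between CR and C (16.7%, beside 17.5% of all genes). It was Slc16a6, a monocarboxylate transporter family member, lower than in C-fed mice (-0.55, adjusted p = 0.0478). Its call held only when C replicate 1 or 3, CR replicate 3, MF replicate 1, 2, 3, 4 or 6 or INT replicate 7 was left out. Among the diets other than CR, the values with the smallest p were Slc16a6 (-0.70, adjusted p = 0.324), and Cd36, a fatty acid transporter (-1.22, adjusted p = 0.327), between INT and MF. Acad12 (-0.41, adjusted p = 0.529) and Fads2 (-0.18, adjusted p = 0.544) followed between INT and C, and Cyp4a12b (-0.74) and Ppargc1a (-0.42), both with an adjusted p of 1, between MF and C.

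**Figure D5:**
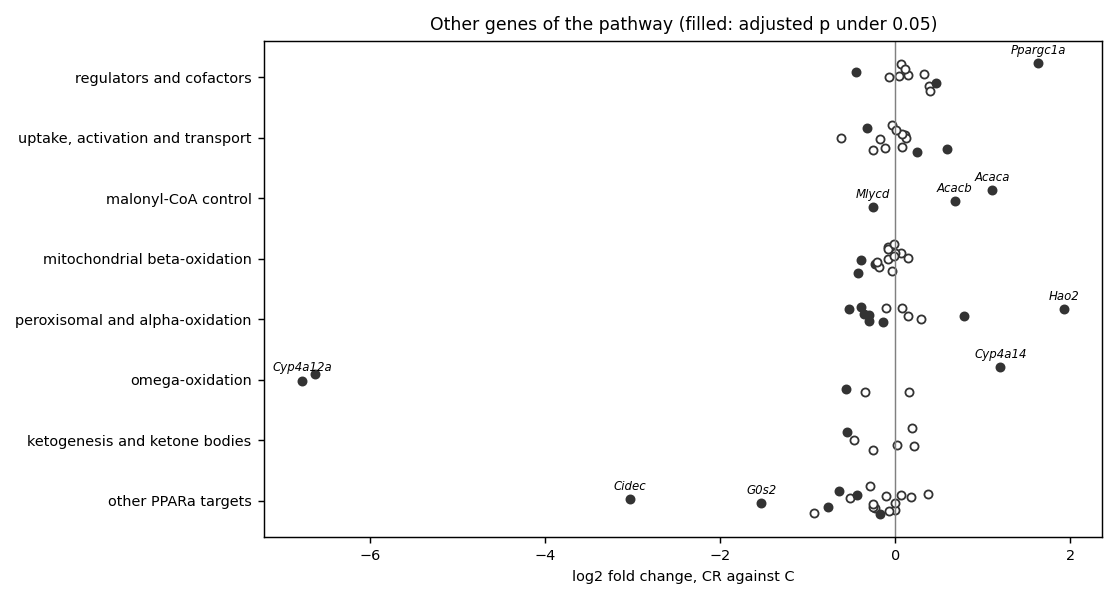
Log2 fold change of 84 other genes of the pathway between CR and C (x axis) by role (y axis), 1 point per gene, filled where the adjusted p was below 0.05. Ppargc1a, Acaca, Acacb and Hao2 lie to the right of 0, and Cyp4a12a and Cidec lie far to the left.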

How the data were processed

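Labels gave each mouse its diet and replicate number. The deposited values are log2 intensities per probe set, which the authors made from all arrays together by robust multiarray average (background correction, quantile normalization and summary). The methods describe probe sets rebuilt for Entrez genes, whereas the table used here carries the array maker's probe set names. Of its 35556 probe sets, 21218 named 1 gene, 1881 several and 12457 none, and only the first were used, with the probe set of highest mean for the 1386 genes that had several (among members, Hadhb). RefSeq's gene table (GRCm38.p6) gave 18790 of 18820 symbols.

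Genes past the methods' minimum, above 20 in intensity on 5 or more arrays (13603, all 31 measured members among them) were fitted on 27 arrays with diet as factor by limma 3.58.1 (lmFit, contrasts.fit, eBayes) in R 4.3.3, with Benjamini-Hochberg adjustment over all of them and a threshold of 0.05 for a call. Members and lists were chosen with earlier results of these data known. The code was tested on simulated data. Values were given for up to 15 called members per comparison by size of change (the 3 with the lowest p if under 3 were called), for Ppara and Cpt1a always, and for up to 8 called other genes (or the 2 with the lowest p). Further members were named so that each is accounted for. Further other genes called between CR and C, and markers, were named after their values were seen, to spell out small counts. Python 3.11.15 with numpy 2.4.6, pandas 2.3.3, scipy 1.17.1 and matplotlib 3.10.9 made the summaries and plots.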

Additional observations from a re-analysis of the deposited data

Results flagged for a closer look

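In 6 of 124 groups (a gene in a diet), the highest or lowest mouse lay unusually far from its nearest neighbour by Dixon's criterion, where chance gives about 1 in 20. Ppara was lowest in C replicate 6 at 10.75, with the nearest mouse at 11.21. Acads was lowest in CR replicate 4 at 10.24, with the nearest at 10.36. Acaa2 was lowest in MF replicate 4 at 12.48, with the nearest at 12.73, and in the same mouse Bdh1 was highest at 11.17, with the nearest at 10.84. Hsd17b4 was lowest in MF replicate 6 at 10.71, with the nearest at 10.98. Pdk4 was highest in INT replicate 1 at 9.85, with the nearest at 8.02.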

How the results depend on the processing

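Other filters, normalizations, variance models, blocks, probe set choices and single mice left out were tried. The choice of the other Hadhb probe set was added after seeing the data. Apart from the fits within replicates 1 to 4 or 5 to 7, 15 of 18 calls between CR and C, 18 of 21 between CR and MF and 15 of 20 between INT and CR held in all 40 settings. Settings with all mice gave 16 to 19, 20 to 25 and 16 to 22 called members, and leaving out single mice gave 15 to 19, 18 to 24 and 16 to 23. Medians with single mice left out ran from -0.35 to -0.26, from -0.40 to -0.32 and from 0.31 to 0.39, and for INT against MF, INT against C and MF against C from -0.03 to 0.03, 0.00 to 0.06 and 0.02 to 0.07. The other genes called numbered 24 to 33, 30 to 37 and 27 to 33. The total counts of called members and of called other genes moved by more than 1.5 times only within these subsets. Counts of 1 direction moved elsewhere too. Members higher between CR and MF went from 1 to 2, through Ehhadh, with median centring, cyclic loess or only the 2 diets fitted. The same gain came with an intensity above 20 on all arrays or a mean intensity above 50. It also came without C replicate 1 or INT replicate 1, 4 or 7. Members higher between CR and C went from 1 to 0, through Etfa, with median centring or no intensity filter. Replicate number or mouse number as a block did the same, as did leaving out any mouse whose omission ended the Etfa call. Without INT replicate 1 they went from 1 to 2, through Ehhadh, and members lower between INT and CR from 0 to 1, through Pdk4. Replicates 1 to 4 alone gave 9 members and 20 other genes (CR against C), and 11 and 21 (INT against CR). Replicates 5 to 7 alone gave 4 and 12 (CR against C), 5 and 11 (CR against MF), and 5 and 14 (INT against CR). These fits hold fewer mice.

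With replicate number as a block, 18, 23 and 22 members were called (medians -0.32, -0.36 and 0.36), 35, 39 and 33 other genes, and none in the other comparisons. Over 39 pairs of diets and numbers, deviations of same-numbered mice correlated from -0.249 to 0.304 (median 0.081), with 17 pairs above 0.1. Differently numbered mice were not compared, so these values cannot tell whether the numbers pair mice.

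Over all single genes and settings, 543 values lost and 78 gained a call with the direction kept, and no called gene changed direction. Some values that were not called did. In replicates 1 to 4, Acads (CR against C) was 0.018, Acadl and Acaa2 (CR against MF) -0.009 and 0.027, Acadl and Etfb (INT against CR) 0.018 and 0.019, Ppara -0.050 (INT against C) and -0.105 (MF against C), Cpt1a (MF against C) 0.005 and Pdk4 (INT against C) 0.174. In replicates 5 to 7, Etfb and Pdk4 (CR against MF) were -0.042 and -0.154, Hadh and Etfa (INT against CR) -0.019 and 0.010, Ppara (INT against MF) -0.053 and Ppargc1a (MF against C) 0.064. Array weights gave -0.002 for Etfb (CR against MF), -0.028 and -0.004 for Ppara (INT against MF and C) and 0.005 for Cpt1a (MF against C). Median centring gave 0.015 for Etfb (INT against CR), and cyclic loess 0.013 for Cpt1a (MF against C). Leaving out single mice gave -0.014 to 0.061 for Acadl (CR against MF), -0.024 to 0.015 for Etfb (INT against CR), -0.013 to 0.032, -0.039 to 0.072 and -0.048 to 0.063 for Ppara (INT against MF, INT against C, MF against C) and -0.023 to 0.021 for Cpt1a (MF against C). The cause was not tested.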
